A study of Mus musculus with 10 samples.

Results

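Voltage-gated potassium (Kv) channel genes of the transient outward and related currents were examined in hearts of wild-type and *Nos1ap* null mouse embryos. The genes were taken by symbol from the table of the authors' comparison, which lists 23195 genes. All 9 were found, namely the pore subunit genes *Kcnd2*, *Kcnd3*, *Kcna4*, *Kcna5* and *Kcnc1* and the auxiliary subunit genes *Kcnip2*, *Dpp6*, *Kcnab1* and *Kcnab2*. The samples were whole hearts of male embryos at embryonic day 13.5, 5 wildtype and 5 *Nos1ap* null, labelled C57BL6/J, and polyA RNA was sequenced from each. According to the methods of the study, the null embryos were homozygous for the tm1d allele, which lacks exon 4 of *Nos1ap* and carries neither the *lacZ* nor the *neo* cassette. This allele is constitutive, so the gene was disrupted in every tissue and not in heart muscle alone. The study asked whether loss of *Nos1ap*, a gene linked to the QT interval of the electrocardiogram, alters the transcriptome of the fetal heart.

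Kv channels are tetramers of pore subunits that open on depolarization and carry potassium out of the cell, and in heart muscle they shape repolarization. The transient outward current, which gives the early phase of repolarization, is carried in its fast form by Kv4 subunits (*Kcnd2* for Kv4.2, *Kcnd3* for Kv4.3) and in its slow form by Kv1.4 (*Kcna4*). Kv1.5 (*Kcna5*) carries the ultrarapid delayed rectifier, and Kv3.1 (*Kcnc1*) is best known from fast-spiking neurons. KChIP2 (*Kcnip2*) and DPP6 (*Dpp6*) associate with Kv4 channels and alter their surface expression and gating, whereas the Kv beta subunits (*Kcnab1*, *Kcnab2*) are cytoplasmic partners, chiefly of Kv1 channels.

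The 5 pore genes are related in sequence, so the stretch that encodes the potassium selectivity filter is shown to let a reader see how far reads of these genes can be told apart. The codons of the potassium channel signature were searched in frame, on the coding strand only, in the principal GENCODE transcript of each gene, as a threonine codon, any codon with T in the middle, a glycine codon, any codon that begins with TA and the first bases of a further glycine codon. This pattern occurred once in each of the 5 pore genes and in none of the 4 auxiliary genes. Each line gives, for 1 Kv4 and both Kv1 genes, 60 bases of coding sequence in the direction of transcription, with the 14 bases of the pattern in capitals.
*Kcnd2*: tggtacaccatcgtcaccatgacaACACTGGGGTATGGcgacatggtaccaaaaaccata
*Kcna4*: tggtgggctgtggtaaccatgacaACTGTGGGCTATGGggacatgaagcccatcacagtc
*Kcna5*: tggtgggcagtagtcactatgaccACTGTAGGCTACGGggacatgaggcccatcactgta
The windows lie in exons of GRCm38, at chr2:107296471-107296530 on the plus strand for *Kcna4* and chr6:126533724-126533783 on the minus strand for *Kcna5*. In *Kcnd2* an exon junction fell inside the window, after base 32, which is base 8 of the pattern. The *Kcnd2* window joins chr6:21217382-21217413 to chr6:21714135-21714162, on the plus strand, across an intron of 496721 bases. *Kcna4* and *Kcna5*, by contrast, have their whole coding sequence in 1 exon.

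Within this window *Kcna4* and *Kcna5* were identical at 50 of 60 bases, *Kcnd2* and *Kcna4* at 40, and *Kcnd2* and *Kcna5* at 38. Over the aligned coding sequence, 74.8% of bases were identical between *Kcnd2* and *Kcnd3*, 71.4% between *Kcna4* and *Kcna5*, and 76.9% between *Kcnab1* and *Kcnab2*. The longest identical run between the principal transcripts of any of the 36 pairs of these genes was 26 bases, between *Kcnab1* and *Kcnab2*, against sequencing reads of 100 bases. Reads from the principal transcripts of the 9 genes could therefore be told apart by their sequence. Other annotated exons of these genes, and other genes of the genome, were not compared.

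Counts of single libraries were recovered from the group means of the table, for all 9 genes among others, and are given as normalized counts, that is, read pairs divided by the size factor of the library. Libraries are numbered 1 to 5 within each genotype by descending size factor, a number unrelated to the replicate number of the labels. An estimated 11328233 to 14023004 read pairs per library fell on genes. According to the labels and the methods of the study, each library came from a separate heart sample. No pair of libraries of a genotype agreed within counting error, with a chi-square per gene of 1.37 to 4.05 where counting error alone gives 1. The labels do not say whether the hearts came from separate litters, and *P*-values measure the spread between these samples. In the check of the labels, *Nos1ap* stood between 126 and 161 normalized counts in wild-type and between 31.1 and 44.4 in null libraries, a log2 fold change of -1.83 ± 0.12 (SE, limma adjusted *P* = 7.8e-09). All 10 cardiomyocyte markers were abundant, with authors' means from 1688 normalized counts for *Nkx2-5* to 128200 for *Myh7*, a myosin heavy chain gene, in wild type.

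Wild-type library 3 stood apart from the other 9 libraries in markers of neurons and glia. All 7 neuronal markers with recovered counts were highest there, and their sum was 1746 normalized counts in this library against 94.5 to 119 in the other 9. *Prph*, which encodes the neuronal intermediate filament peripherin, stood at 585 in this library and at 3.02 to 12.1 in the others, and *Sox10*, a transcription factor of neural crest and glia, at 141 and at 6.44 to 16.2 in the others. The sum of the 6 glial markers was 788 against 332 to 423, and 5 of them were highest in library 3. For *Nefm*, the most abundant neuronal marker, no library counts were recovered, and its authors' mean was 311 in wild type and 17.9 in null. *Myh11*, a smooth muscle myosin gene, was also highest there, at 206 against 28.3 to 69.1. In bulk tissue, more cells of a type and more RNA per cell cannot be told apart. Each fold change of the 9 genes is therefore given with and without this library.

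Null library 2 also stood apart. Its chi-square per gene against the other null libraries was 2.58 to 3.15, whereas that of all other null pairs was 1.37 to 1.64, and for wild-type library 3 the values were 3.30 to 4.05 against 1.55 to 2.81. Among the lists of related channel genes read below, it had the lowest sum of 10 other auxiliary subunit genes, 733 normalized counts against 739 to 930. Its sum of 8 regulator and anchor genes was the highest, 5482 against 5222 to 5462, and that of 20 other Kv pore genes ranked 5. Null library 2 had the highest summed level of 4 skeletal muscle markers, 200.1 normalized counts against 87.9 to 176 in the other 9 libraries. Its sums of neuronal and glial markers were the lowest of the 10, but only narrowly. They were 94.5 against at least 96.9 for the neuronal and 332 against at least 345 for the glial markers. The 1 erythroid marker with recovered counts was highest there, at 256 against 39.3 to 222. The part of these markers in the channel gene values was not tested, and fold changes without this library are given too.

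For none of the 9 channel genes did the difference between the genotypes pass a test. *Kcnc1* was too low to be fitted with limma. Of the 8 others, 0 were called at an adjusted *P* of 0.05, against 3 of 10316 genes, or 0.0291%, over the whole fit. These 3 were *Nos1ap* and *Gm7694*, lower in null, and *Mt2*, higher in null, of which the latter pair are named after their values were seen. At an unadjusted *P* under 0.05 the count was also 0 of 8, against 364 genes, or 3.53%. For none of the 9 genes did the libraries of the genotypes separate without overlap, whereas 81 of the 10316 genes, or 0.785%, did. The log2 fold change of null over wild type was above 0 for 6 of the 8 genes and below 0 for 2, with a median of 0.04. Over all fitted genes, 4937 were above 0 and 5376 below, with a median of 0.00. With these shares, a count of 0 among 8 genes lies near the background and says little about these genes on their own. The intervals say more, since they bound the change of each gene.

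**Figure D1:**
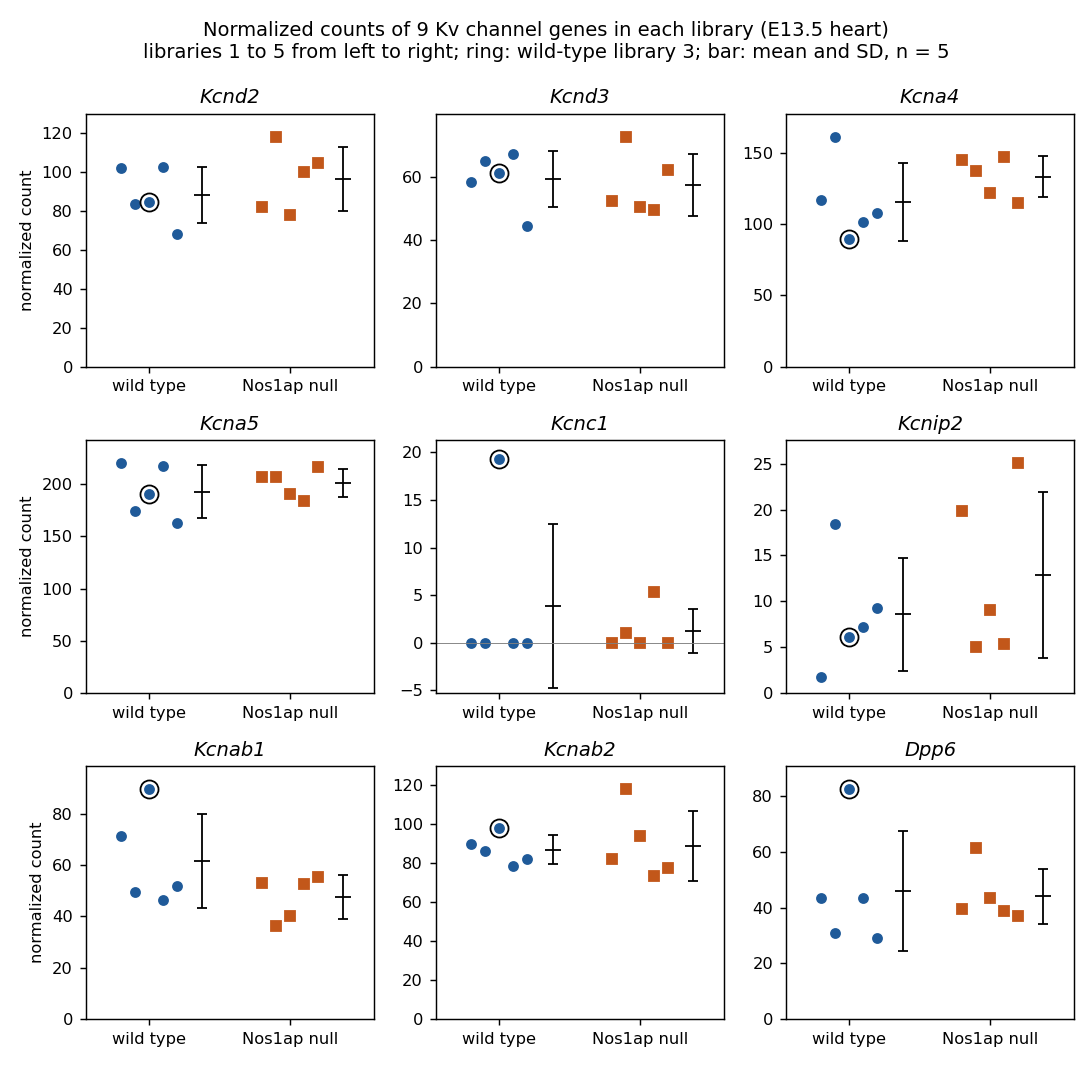
Normalized count of each of the 9 channel genes (vertical axis, linear) in the 5 wild-type (circles) and 5 *Nos1ap* null (squares) libraries, with the mean and SD (n = 5) beside each group and a ring around wild-type library 3. The genotypes overlap in every panel, and library 3 is the highest of all 10 libraries for *Kcnc1*, *Kcnab1* and *Dpp6* and the lowest for *Kcna4*.

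*Kcnd2*, the Kv4.2 pore gene (chr6:21215503-21729805, plus strand), stood at 102, 83.2, 84.5, 102 and 68.3 normalized counts in wild-type libraries 1 to 5 and at 81.9, 118, 77.6, 99.9 and 105 in null libraries 1 to 5. The null libraries reached the highest value, and the wild-type libraries the lowest, but 4 of the 5 wild-type values lay within the range of the null. The means were 88.0 ± 14.3 in wild type and 96.3 ± 16.5 in null (SD, n = 5), a log2 fold change of 0.13 ± 0.13 (SE; 95% interval -0.15 to 0.40; limma adjusted *P* = 0.998). An exact permutation test, two-sided on the means, gave *P* = 0.437, where 0.00794 is the smallest value that 5 against 5 libraries allow. Without wild-type library 3 the log2 fold change was 0.12 ± 0.14, and without null library 2, the highest of the 10, it was 0.05 ± 0.13.

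*Kcnd3*, the Kv4.3 pore gene (chr3:105452330-105674002, plus strand), stood at 58.3, 64.9, 61.1, 67.1 and 44.5 normalized counts in the wild-type libraries, in the order 1 to 5 kept throughout, and at 52.2, 72.4, 50.4, 49.4 and 62.1 in the null libraries. Library 5 was the lowest wild-type library for *Kcnd3* as it was for *Kcnd2*, and library 2 was the highest null library for both. The difference between genotypes was small, with means of 59.2 ± 8.87 and 57.3 ± 9.83 (SD, n = 5) and a log2 fold change of -0.05 ± 0.15 (SE; 95% interval -0.35 to 0.26; exact permutation *P* = 0.738). Without wild-type library 3 it was -0.03 ± 0.15, and without null library 2 it was -0.13 ± 0.15. Across the 10 libraries, after centring within genotype, log2 values of the Kv4 genes had a Pearson *r* of 0.77, the highest of the 36 pairs of these genes. The 10 points share their libraries and size factors, and the value is a description.

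The split between both Kv4 genes was steady across libraries, while its level depended on the length used. Per kilobase of annotated exon, *Kcnd2* made up 73.4 ± 2.26% of the Kv4 sum in wild type and 75.7 ± 1.95% in null (SD, n = 5), with a range over all libraries of 70.5 to 79.0%. Per kilobase of the principal transcript, a length chosen after seeing the data, the same share was 43.5 ± 2.86% in wild type and 46.5 ± 2.72% in null. *Kcnd3* has 9.59 kb of annotated exon but a principal transcript of 2.67 kb, whereas for *Kcnd2* both lengths are 5.15 kb, so which Kv4 gene had the higher level was not settled by these data. The share of *Kcnd2* overlapped between genotypes under either length, with exact permutation *P* = 0.135 and 0.143.

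*Kcna4*, the Kv1.4 pore gene of the slow transient outward current (chr2:107290639-107298502, plus strand), stood at 117, 161, 89.6, 101 and 108 normalized counts in the wild-type and 145, 137, 122, 147 and 114 in the null libraries. Wild-type library 2 held the highest value of all 10 and wild-type library 3 the lowest, and 4 of the 5 null values exceeded 4 of the 5 wild-type values. The means were 115 ± 27.3 and 133 ± 14.3 (SD, n = 5), a log2 fold change of 0.23 ± 0.13 (SE; 95% interval -0.04 to 0.50; limma unadjusted *P* = 0.0908, adjusted *P* = 0.998; exact permutation *P* = 0.238). Without wild-type library 3, which was 0.70 times the mean of the other 9 libraries, the log2 fold change was 0.15 ± 0.12, and without null library 2 it was 0.22 ± 0.14. Without wild-type library 2, the highest of the 10, it was 0.36 ± 0.11, with a 95% interval of 0.13 to 0.58 that excluded 0 and a limma adjusted *P* of 0.96. Among the pore genes *Kcna4* had the largest estimate, and whether its interval included 0 rested on this library.

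*Kcna5*, the Kv1.5 pore gene (chr6:126532551-126535412, minus strand), stood at 220, 174, 190.3, 218 and 162 normalized counts in the wild-type and 207, 207, 190.6, 184 and 217 in the null libraries. All 5 null values fell inside the range of the wild type, and the null libraries were less spread, with an SD of 13.5 against 25.7. The means were 193 in wild type and 201 in null (n = 5), a log2 fold change of 0.07 ± 0.09 (SE; exact permutation *P* = 0.571). Its 95% interval of -0.12 to 0.25, or 0.923 to 1.19 times the wild-type level, was the narrowest among the 8 fitted genes, and without wild-type library 3 the estimate was 0.06 ± 0.09 and without null library 2 it was 0.05 ± 0.09. *Kcna5* had the most reads, with 157 to 253 read pairs per library.

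*Kcnc1*, the Kv3.1 pore gene (chr7:46396497-46438704, plus strand), was the only one of the 9 genes under the minimum of 10 normalized counts set for the fit. It had 19 read pairs in wild-type library 3, 1 in null library 2 and 5 in null library 4, and 0 in the other 7 libraries, where a count of 0 allows up to 2.61 to 3.27 normalized counts per library (3 read pairs, counting error only). Its authors' mean of 3.87 in wild type therefore rested on library 3 alone. The difference of null minus wild-type means was -2.59 normalized counts with all libraries and 1.27 without library 3, with exact permutation *P* = 1.0 and 0.444. Without null library 2 it was -2.53. The library that held 19 of its 25 read pairs was the library with the raised neuronal and glial markers, and the part of these markers in the *Kcnc1* value was not tested. In the other wild-type libraries *Kcnc1* was not detectable at this depth.

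*Kcnip2*, which encodes the Kv4 partner KChIP2 (chr19:45791839-45816061, minus strand), was low and uneven. It stood at 1.74, 18.4, 6.11, 7.22 and 9.31 normalized counts in the wild-type and 19.8, 5.03, 9.07, 5.37 and 25.1 in the null libraries, from 2 to 23 read pairs each. In each genotype the highest library was several times the lowest, and the coefficient of variation was 72.0% in wild type and 70.4% in null. The means were 8.56 ± 6.16 and 12.9 ± 9.06 (SD, n = 5), a log2 fold change of 0.54 ± 0.51 (SE; exact permutation *P* = 0.381). The 95% interval from -0.54 to 1.63, or 0.686 to 3.09 times the wild-type level, left both a fall and a rise of this gene within reach. Leaving out 1 library at a time moved the estimate from 0.16, without wild-type library 1, to 0.86, without wild-type library 2, and it was 0.50 ± 0.60 without wild-type library 3 and 0.78 ± 0.52 without null library 2.

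The spread of *Kcnip2* exceeded counting error. The sum of squared deviations from the genotype mean, scaled so that counting error alone gives 1, was 5.46 for *Kcnip2*, against a median of 1.44 over the 4765 fitted genes with a mean of 10 to 200 normalized counts. This index was 6.13 for *Dpp6*, 4.02 for *Kcna4*, 3.50 for *Kcnab1* and 2.60 for *Kcnd2*. It was lowest for *Kcnd3*, at 1.48, close to the median of all such genes. Relative to the sum of both Kv4 genes per kilobase of annotated exon, *Kcnip2* ranged from 0.019 to 0.23 in wild type and between 0.048 and 0.27 in null. Per kilobase of the principal transcript the same ratio ranged between 0.060 and 0.66 in wild type and between 0.15 and 0.83 in null, so its level depended on the length used.

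*Dpp6*, which encodes the other Kv4 partner examined, a transmembrane protein of the dipeptidyl peptidase family (chr5:26817203-27727505, plus strand), stood at 43.5, 30.98, 82.4, 43.3 and 29.0 normalized counts in the wild-type and 39.6, 61.3, 43.4, 38.7 and 37.0 in the null libraries. Wild-type library 3 was the highest of the 10 and null library 2 the next, and the other 8 libraries lay between 29.0 and 43.5. With all libraries the means were 45.9 ± 21.5 and 44.0 ± 9.97 (SD, n = 5), a log2 fold change of 0.02 ± 0.24 (SE; 95% interval -0.48 to 0.52; exact permutation *P* = 0.897). Without wild-type library 3 the wild-type mean was 36.7 ± 7.81 (n = 4) and the log2 fold change 0.25 ± 0.18 (limma adjusted *P* = 0.997; exact permutation *P* = 0.278). Without null library 2 it turned to -0.10 ± 0.23. The raised neuronal and glial markers of library 3 stand beside this value, and their part in it was not tested.

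*Kcnab1*, which encodes Kv beta 1 (chr3:65109384-65378223, plus strand), stood at 71.3, 49.4, 89.6, 46.4 and 51.7 normalized counts in the wild-type and 53.1, 36.2, 40.3, 52.6 and 55.5 in the null libraries. Wild-type libraries 3 and 1 were above every null library, and the other 3 wild-type libraries lay within the null range. The means were 61.7 ± 18.4 and 47.6 ± 8.68 (SD, n = 5), a log2 fold change of -0.34 ± 0.18 (SE; 95% interval -0.72 to 0.03; limma unadjusted *P* = 0.0719, adjusted *P* = 0.998; exact permutation *P* = 0.183). This was the smallest unadjusted *P* among the 8 genes. Without wild-type library 3 the log2 fold change was -0.20 ± 0.17 (exact permutation *P* = 0.333) and without null library 2 it was -0.25 ± 0.18. Without wild-type library 2 it was -0.41 ± 0.19 (95% interval -0.81 to -0.01; limma adjusted *P* = 0.960). Without wild-type library 4 it was -0.43 ± 0.19 (95% interval -0.82 to -0.04; limma adjusted *P* = 0.998). Whether the interval included 0 thus rested on single libraries. The part of the neuronal and glial markers of wild-type library 3 in the *Kcnab1* value was not tested.

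*Kcnab2*, which encodes Kv beta 2 (chr4:152390742-152477871, minus strand), stood at 89.6, 86.1, 97.7, 78.4 and 81.7 normalized counts in the wild-type and 81.9, 118, 93.8, 73.0 and 77.3 in the null libraries. All wild-type values lay within the range of the null. The means were 86.7 ± 7.47 and 88.7 ± 17.9 (SD, n = 5), a log2 fold change of 0.02 ± 0.12 (SE; 95% interval -0.24 to 0.28; exact permutation *P* = 0.881). Null library 2, the highest at 118, was also the highest null library for *Kcnd2*, *Kcnd3* and *Dpp6*. Without wild-type library 3 the log2 fold change of *Kcnab2* was 0.06 ± 0.13, and without null library 2 it turned to -0.09 ± 0.12.

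**Figure D2:**
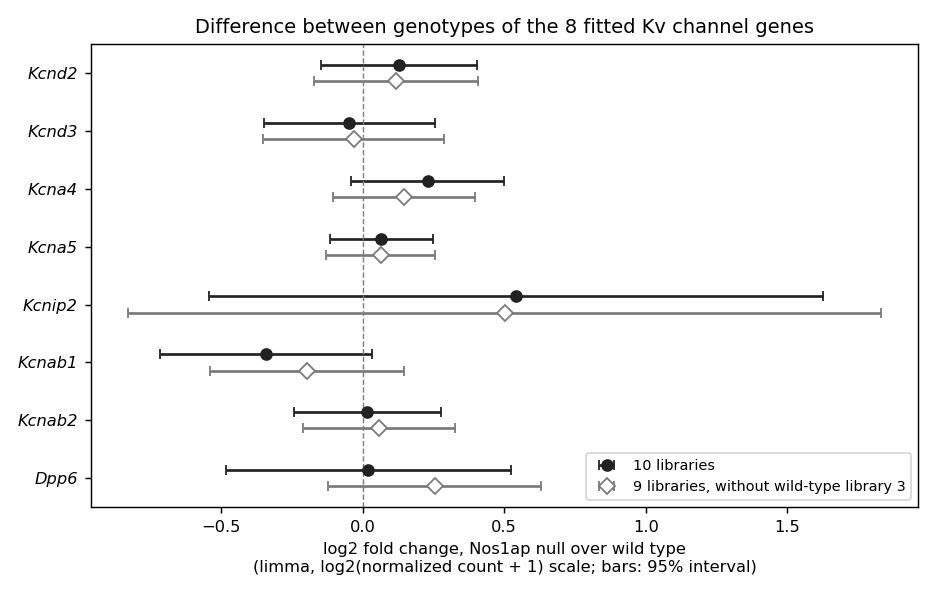
Log2 fold change of *Nos1ap* null over wild type (horizontal axis) from limma for the 8 fitted channel genes, with 95% intervals, from all 10 libraries (filled circles) and from 9 libraries without wild-type library 3 (open diamonds). Every interval includes 0, that of *Kcna5* is the narrowest (-0.12 to 0.25) and that of *Kcnip2* the widest (-0.54 to 1.63).

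Levels were compared between genes as normalized counts per kilobase, here of annotated exon, over the 10 libraries. *Kcna5* had the highest level, 68.8 ± 6.93 (SD, n = 10), followed by *Kcna4* at 25.7 ± 4.68, *Kcnd2* at 17.9 ± 2.95 and *Kcnab2* at 15.7 ± 2.33. *Kcna5* exceeded *Kcna4* in all 10 libraries without overlap of their ranges, and *Kcna4* exceeded *Kcnd2* in all 10 with overlapping ranges. *Kcnd2* was above *Kcnab2* in 7 of 10 libraries, so these neighbours did not differ beyond their spread. After a gap to *Kcnab2*, *Kcnab1* followed at 6.36 ± 1.80 and *Kcnd3* at 6.07 ± 0.93, which could not be ordered, each being higher in 5 of 10 libraries. *Dpp6* at 3.64 ± 1.28 and *Kcnip2* at 3.08 ± 2.20 could not be ordered either, and *Kcnc1* was last at 0.27 ± 0.65.

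Compared with the median protein-coding gene of the table, at 44.2 normalized counts per kilobase, 8 of the 9 genes were low. *Kcna5* was above 60.1% of the 16928 protein-coding genes with a length, *Kcna4* above 40.6%, *Kcnd2* above 36.2%, *Kcnip2* above 21.6% and *Kcnc1* above 6.60%. With the length of the principal transcript, *Kcna5* remained in front at 68.8 and *Kcnc1* last at 0.81. *Kcna4* at 25.9 ± 4.72, *Kcnab2* at 22.4 ± 3.31 and *Kcnd3* at 21.8 ± 3.33 (SD, n = 10) then did not differ beyond their spread, *Kcna4* being higher than each of the others in 8 of 10 libraries. *Kcnip2* stood at 15.5 with this length. The ratio of *Kcna5* to *Kcna4* per kilobase ranged from 1.83 to 3.64 in wild type and between 2.11 and 3.20 in null, with exact permutation *P* = 0.373.

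**Figure D3:**
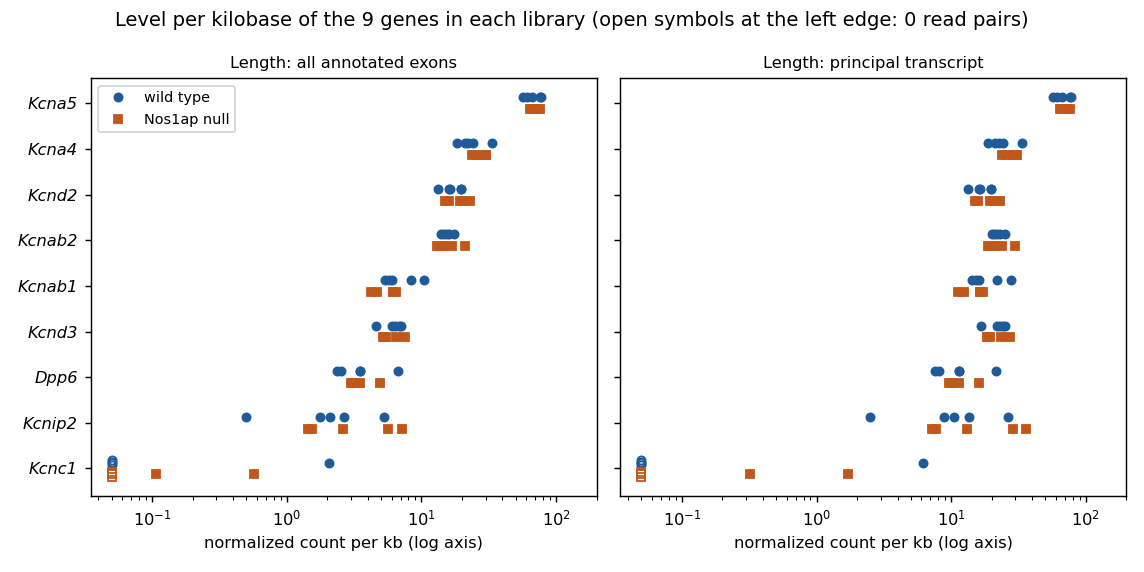
Normalized count per kilobase (log axis) of the 9 channel genes in the wild-type (circles) and *Nos1ap* null (squares) libraries, with the length of all annotated exons on the left and of the principal transcript on the right; open symbols at the left edge are libraries with 0 read pairs. *Kcna5* leads under both lengths, and *Kcnd3* moves from 6.07 to 21.8.

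The difference of wild-type library 3 from the other 9 libraries was not shared by all channel genes. *Kcnc1* had 19 read pairs in this library and 6 in the other 9 together, too few for a fold. *Dpp6* was 2.02 times and *Kcnab1* 1.76 times the mean of the other 9, and all 3 genes were the highest of the 10 libraries there. *Kcnab2* was the second highest, at 1.13 times. *Kcnd2*, *Kcnd3*, *Kcna5* and *Kcnip2* ranked between 5 and 7, and *Kcna4* was the lowest of the 10. For comparison, library 3 was the highest of the 10 for 15.6% of all fitted genes and over 1.5 times the mean of the others for 5.09%. These shares leave out genes without recovered counts, some of which may be uneven across libraries.

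**Figure D4:**
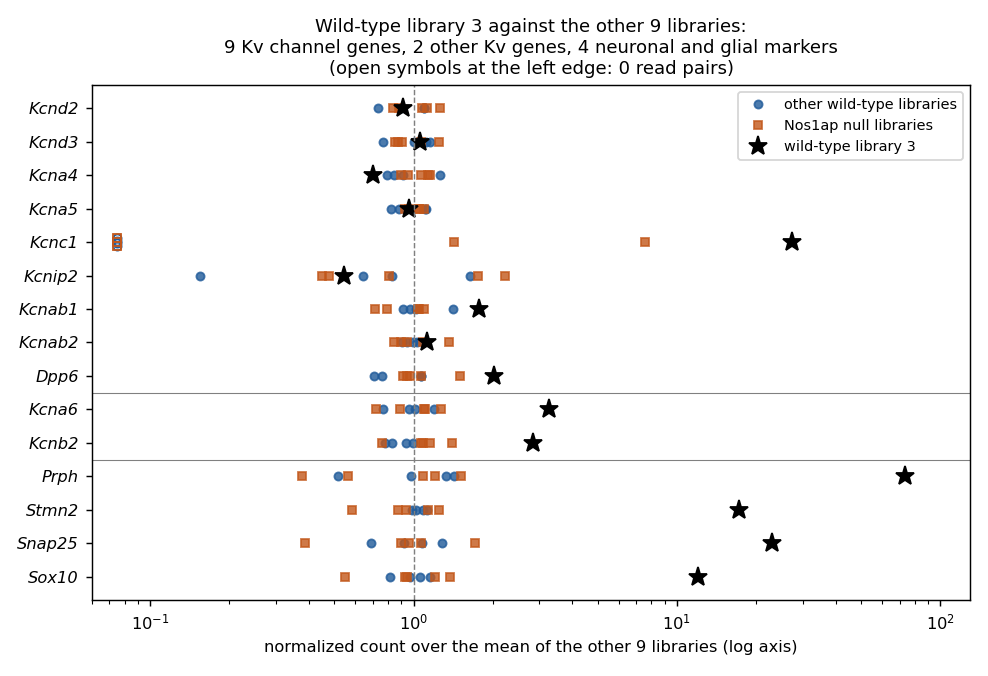
Normalized count of each library divided by the mean of the 9 libraries other than wild-type library 3 (log axis), for the 9 channel genes (top), 2 other Kv genes (middle) and 4 neuronal and glial markers (bottom), with wild-type library 3 as a star; open symbols at the left edge are libraries with 0 read pairs. The star lies far to the right for the markers, to the right for *Kcnc1*, *Dpp6*, *Kcnab1* and the 2 other Kv genes, and to the left of all other libraries for *Kcna4*. The 2 other Kv genes and 4 markers were drawn from those highest in library 3 and do not stand for their lists. Highest there were 6 of 20 other Kv pore genes, all 7 neuronal markers with recovered counts and 5 of 6 glial markers.

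Other Kv pore subunit genes were read beside these 9. Of 20 such genes in the table, 9 were fitted, and 0 of 9 were called in either direction, with a median log2 fold change of -0.07 beside 0.00 for all fitted genes. The most abundant was *Kcng2*, which encodes an electrically silent subunit that modifies Kv2 channels, at 759 to 938 normalized counts in wild type and 865 to 912 in null. *Kcna6*, which encodes Kv1.6, stood at 178 in wild-type library 3 and at 39.2 to 69.3 in the other 9 libraries. *Kcnd1*, the third Kv4 gene, had a log2 fold change of -0.14 ± 0.14 (SE; limma adjusted *P* = 0.998). Of the 20 genes, 6 were highest in that library, whereas *Kcng2* was lowest there.

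Other auxiliary subunit genes numbered 10, of which 6 were fitted and 0 were called, with a median log2 fold change of -0.02. *Kcnip3*, which encodes KChIP3, also known as the transcriptional repressor DREAM, stood at 35.7, 30.0, 35.6, 44.4 and 49.7 normalized counts in the wild-type and 27.9, 24.1, 24.2, 32.2 and 25.0 in the null libraries. The groups overlapped only through wild-type library 2 and null library 4. Its log2 fold change was -0.52 ± 0.17 (SE; limma unadjusted *P* = 0.0074, adjusted *P* = 0.998), which did not pass the test over all genes. *Kcne4*, which encodes a small inhibitory subunit of Kv channels, had a log2 fold change of -0.36 ± 0.22 (limma unadjusted *P* = 0.114). The most abundant, *Kcne1* and *Kcne1l*, of which *Kcne1* encodes the partner of KCNQ1 in the slow delayed rectifier, had log2 fold changes of 0.12 ± 0.11 and 0.10 ± 0.10.

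Genes that regulate or anchor Kv4 and related channels numbered 14, of which 8 were fitted and 0 were called, with a median log2 fold change of 0.01. *Irx3*, an Iroquois transcription factor gene of the ventricular conduction system, had a log2 fold change of -0.13 ± 0.06 (limma unadjusted *P* = 0.0328, adjusted *P* = 0.998). *Mbnl1*, a splicing regulator, had one of 0.09 ± 0.05 (limma unadjusted *P* = 0.0652). *Actn2* and *Flna*, cytoskeletal genes whose products bind Kv channels, were the most abundant, with authors' means of 17210 and 17560 for *Actn2* and 7798 and 7869 for *Flna* in wild type and null.

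**Figure D5:**
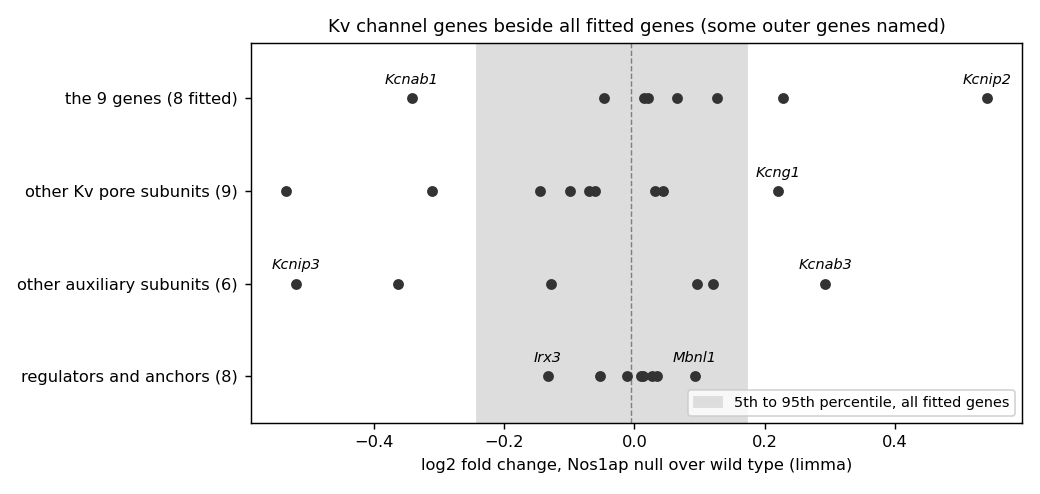
Log2 fold change of *Nos1ap* null over wild type (horizontal axis, limma) of the fitted genes among the 9 channel genes and the 3 lists of related genes, with the band from the 5th to the 95th percentile of all fitted genes (-0.24 to 0.17) and their median (dashed). *Kcnab1*, *Kcna4* and *Kcnip2* lie outside the band, as does *Kcnip3*, and none of these genes was called.

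Other cell type markers were read beside the channel genes for the same comparison. The authors' sums over the marker lists gave log2 ratios of null over wild type of 0.03 for 10 cardiomyocyte genes (led by *Myh7*), 0.05 for 5 endothelial genes (led by *Cdh5*), -0.07 for 5 smooth muscle and pericyte genes (led by *Acta2*), 0.10 for 4 epicardial genes (led by *Upk3b*) and 0.05 for 5 skeletal muscle genes (led by *Ckm*). The ratio was 0.39 for 4 erythroid genes (led by *Hba-a1*), -0.09 for 4 myeloid genes (led by *Csf1r*) and 0.06 for 5 conduction system genes (led by *Hcn4*). It was -2.45 for 10 neuronal genes (led by *Nefm*) and -0.34 for 6 glial genes (led by *Erbb3*). Wild-type library 3 was the highest for all 7 neuronal genes with recovered counts and for 5 of the 6 glial genes. No library counts were recovered for *Nefm*, *Tubb3* and *Nefl*, so the library behind their part of the neuronal sum is not known. All of these list sums are carried by their most abundant genes. Of the 23 fitted marker genes 0 were called, and 4 had an unadjusted limma *P* under 0.05, against 3.53% of all fitted genes. They were *Itgam*, a myeloid integrin gene, with a log2 fold change of -0.90 ± 0.25, *Isl1*, a gene of the sinus node and of neurons, at -0.59 ± 0.20, *Wt1*, an epicardial gene, at 0.18 ± 0.06 and *Hcn4*, a pacemaker channel gene, at 0.15 ± 0.06. The libraries of the genotypes did not overlap for *Itgam*, at 21.7 to 48.9 normalized counts in wild type and 10.1 to 20.7 in null. Wild-type library 3 was the highest of the 10 for *Itgam* (48.9 against 10.1 to 27.0) and for *Isl1* (125 against 40.2 to 72.4). It was the lowest for *Hcn4* (359 against 382 to 457) and the second highest for *Wt1*. The authors' means gave log2 ratios of -0.93 for *Myh11* and -0.49 for *Rgs5* within the smooth muscle and pericyte list. *Myh11* stood at 206 in wild-type library 3, at 32.9 to 69.1 in the other wild-type libraries and at 28.3 to 64.8 in null. Its limma log2 fold change was -0.70 ± 0.47 (unadjusted *P* = 0.177). For *Rgs5* no library counts were recovered. Whether any of these cell types contributed to the channel gene values was not tested.

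For 8 of the channel genes, the fitted gene whose log2 values followed it most closely over the 10 libraries, after centring within genotype, was found among 10308 candidates. *Kcnd2* was most like *Chd2* (Pearson *r* = 0.99), *Kcna4* most like *Serpinb6b* (0.95) and *Kcna5* most like *Nat8f4* (0.99). *Kcnip2* was most like *Gnl2* (0.95), *Kcnab1* most like *Reep1* (0.93), *Kcnab2* most like *Rab40c* (0.94) and *Dpp6* most like *Rnft2* (0.97). For *Kcnc1* it was *Clmn* (0.98; Spearman *rho* = 0.69), and both were highest in wild-type library 3. *Kcnab1* and *Reep1* were both highest in that library too, as were *Dpp6* and *Rnft2*. These values are the highest of many over 10 points that share libraries and size factors, and they describe likeness only.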

How the data were processed

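PolyA RNA-seq libraries of embryonic day 13.5 hearts of male embryos, 5 wild-type and 5 *Nos1ap* null, were grouped by the genotype of their labels. After trimming (Trimmomatic 0.36), the authors aligned reads to GENCODE M10 on GRCm38 (STAR, run by RSEM 1.2.31), divided gene counts by DESeq 1.24.0 size factors and deposited 1 table. Its signal values, used here, are normalized counts averaged by the authors over the 5 libraries of a genotype. The fold changes, p-values and adjusted p-values of their comparison were not used. No column of another sample was present (0).

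Whole counts per library were recovered from the group means. Size factors were read from the steps between possible means, and the set of counts giving a mean to its last digit was taken where it was unique (all sets searched below a mean of 200, the set nearest to equal expression up to 1000). Both means were resolved for 20175 of 23195 genes, and the search was tested on simulated data. Genes with a mean of 1000 or more, cardiomyocyte markers among them, have authors' means only. From 200 to 1000, genes uneven across libraries were less readily resolved. *Nefm*, *Tubb3* and *Rgs5*, with authors' wild-type means of 311, 242 and 697, were not recovered, whereas *Irx4* at 877 was. Shares over all fitted genes may therefore lean toward even genes. Protein-coding genes with a mean of at least 10 (10316 of 13299 such genes) were fitted with limma 3.58.1 (R 4.3.3) on log2(normalized count + 1), with trend and robust moderation and Benjamini-Hochberg adjustment, called at 0.05; fold changes are on this scale, which understates changes of low genes. Single genes were also compared by exact two-sided permutation over 252 arrangements (126 without 1 library), with no adjustment over the 9 genes. Depth was estimated from size factors; intervals and floors for counts cover counting error only. Lengths and positions are from GENCODE M21 on GRCm38, sequences from its transcripts. The principal transcript is the APPRIS principal one with the longest coding sequence. Identity is over global alignments (Biopython 1.88).

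The 9 genes and all lists were chosen with earlier results of these data known. Named genes are the 9, *Nos1ap*, from each list of related genes the 2 with the smallest *P* and the 2 with the highest wild-type mean, from each cell type list the gene with the highest mean, and for each of the 9 its most alike fitted gene (some genes and sequences that these rules select are not reported here); *Prph*, *Sox10*, *Myh11*, *Nkx2-5*, *Itgam*, *Isl1*, *Wt1* and *Rgs5* were chosen after their values were seen, as were genes given only for a library apart from its group. Alternatives changed the pseudocount, minimum mean, gene types, weights, scaling, moderation and libraries.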

Additional observations from a re-analysis of the deposited data

Results flagged for a closer look

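In each genotype, the highest and the lowest of the 5 libraries were examined for the 9 channel genes, *Nos1ap* and fitted genes of the lists of other Kv pore and auxiliary subunits. Of 46 sets of 5 libraries, 7 had a library whose gap to its nearest neighbour was over 0.71 of the whole range. About 1 in 20 sets of normally distributed values would pass this limit. Counts are skewed, and sets of mostly 0, such as those of *Kcnc1*, pass it more readily. With no rate over all fitted genes beside it, 7 of 46 cannot be read as an excess. In wild type, 4 such sets were found, and the library was number 3 in each. It held *Kcnc1* at 19.3 normalized counts (next 0), *Dpp6* at 82.4 (next 43.5), *Kcna6* at 178 (next 65.2) and *Kcnb2* at 26.5 (next 9.29).

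In the null libraries, *Kcnc1* stood at 5.37 normalized counts in library 4 (next 1.01) and *Dpp6* at 61.3 in library 2 (next 43.4). The lowest library stood apart for *Kcne1*, at 424 in library 2 (next 533). No cause was tested for any of these values.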

How the results depend on the processing

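No paired analysis was possible because the recovered counts carry no replicate number of the labels. None of the 8 fitted channel genes passed an adjusted *P* of 0.05 under any limma alternative, the lowest adjusted *P* being 0.863 (*Kcna4*, without 1 library). The number of genes called stayed at 3 under each alternative; it was 1 higher and 2 lower in null, but 0 higher and 3 lower (*Nos1ap*, *Grid1* and *Gm7694*) without trend and robust moderation, and the cause was not tested. Counts called in the lists of related genes stayed at 0. Leaving out each library in turn gave log2 fold changes of 0.04 to 0.20 for *Kcnd2*, -0.14 to 0.00 (0.0019 without null library 4) for *Kcnd3*, 0.15 to 0.36 for *Kcna4*, 0.01 to 0.12 for *Kcna5*, 0.16 to 0.86 for *Kcnip2*, -0.43 to -0.20 for *Kcnab1*, -0.0906 to 0.0796 for *Kcnab2* and -0.11 to 0.25 for *Dpp6*. The direction turned for *Kcnd3*, *Kcnab2* and *Dpp6*, whose main values lie within 1 SE of 0. For *Kcnc1* the difference of means ranged from -3.62 to 1.27 normalized counts, with the turn without wild-type library 3. For *Dpp6* the ratio of the deposited group means gave -0.0594, opposite in sign to the fitted 0.02. With a minimum mean of 1, *Kcnc1* entered the fit with a log2 fold change of -0.13 ± 0.82. Depth limits *Kcnc1*, with 0 read pairs in 7 libraries.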
